A study of Homo sapiens with 21 samples.

Results

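The 9 genes described here code for the TGF-beta ligands TGFB1, TGFB2 and TGFB3, the receptors TGFBR1, TGFBR2 and TGFBR3, the signal carriers SMAD3 and SMAD7, and the target gene TGFBI. They were chosen by gene symbol among the 60728 rows of the deposited expression table, and all 9 were among the 18584 genes with enough reads to test. RNA-Seq was made from SK-N-BE(2), an established neuroblastoma cell line, 72 h after lentiviral transduction with short hairpin RNAs (shRNAs), which lower the level of a target transcript. The study asked what the loss of ARID1A and ARID1B does to these cells. ARID1A and ARID1B are alternative subunits of BAF, a chromatin remodelling complex that uses ATP to move nucleosomes. The 21 libraries fall into 7 conditions of 3 libraries each, described as biological triplicates: a non-silencing Control, shARID1A.2 and shARID1A.4 (labelled ARID1A silencing), shARID1B.2 and shARID1B.3 (labelled ARID1B silencing), and the combinations shARID1A/B.2.3 and shARID1A/B.4.2. All 21 libraries come from 1 cell line and 1 time point, each condition rests on 1 shRNA or 1 pair of shRNAs, and the labels give no batch or date. Polyadenylated RNA was sequenced from stranded libraries, which held 27954334 to 41077638 reads.

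TGF-beta ligands are secreted as latent dimers that must be released before they can bind. The active ligand brings together the type II receptor TGFBR2 and the type I receptor TGFBR1, and TGFBR1 then phosphorylates SMAD2 and SMAD3, which enter the nucleus with SMAD4 and change transcription. TGFBR3 (betaglycan) is a co-receptor that presents ligand, TGFB2 above all, and SMAD7 is an inhibitory SMAD, itself induced by the pathway, that blocks the type I receptor. TGFBI, a secreted protein of the extracellular matrix, was named for its induction by TGF-beta. In neural crest derived cells and in many tumours the pathway is known for its part in matrix production, migration and growth arrest.

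The levels of ARID1A and ARID1B departed from the labels in all 6 silenced conditions. In those labelled shARID1A the named transcript was low, but ARID1B was low as well. Values here are deposited values, that is reads scaled by the size factor of the library. ARID1A was at 6097, 6374 and 6463 in the Control libraries. It was at 2169, 2159.9 and 2109 in those labelled shARID1A.2, at 2289, 2157 and 2284 in shARID1A.4, at 1962, 1882 and 1916 in shARID1B.2, and at 2507, 2479.9 and 2449.7 in shARID1B.3. The libraries labelled shARID1A/B kept more of it, with 5510.3, 5752 and 5714 in shARID1A/B.2.3 and 5589, 5352 and 5379 in shARID1A/B.4.2. ARID1B was at 5793, 5804 and 5791 in Control. It was at 2252, 2248 and 2224 in shARID1A.2, at 3065, 3109.7 and 3126 in shARID1A.4, at 2540.5, 2651 and 2607 in shARID1A/B.2.3, and at 1886, 1881 and 1955 in shARID1A/B.4.2. In the libraries labelled shARID1B it was at 5056, 4913 and 5043 (shARID1B.2) and at 6182, 6038 and 6053 (shARID1B.3). The libraries labelled shARID1A therefore had both transcripts low, those labelled shARID1B had ARID1A low, and those labelled shARID1A/B had ARID1B low. Groups keep their labels throughout, and each direction below belongs to the libraries so labelled.

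Of the 9 genes, TGFBI and SMAD3 were lower in each of the 18 silenced libraries than in any Control library, TGFBR1 was below the Control range in 16 of them, and no member rose by more than 2-fold in any condition. The share of all genes with silenced libraries outside the Control range in this way was not counted, so this placing is not read as particular to the members. A change was called at a limma adjusted p under 0.05, with p-values adjusted over all 18584 genes. In shARID1A.2, 7 members fell and 1 rose, where 38.2% of all genes were called lower and 37.9% higher. In shARID1A.4, 9 fell and 0 rose (all genes 36.6% and 37%). In shARID1B.2, 5 fell and 2 rose (34% and 31.6%), and in shARID1B.3, 7 fell and 2 rose (32% and 31.9%). In shARID1A/B.2.3, 6 fell and 1 rose (34% and 35.2%), and in shARID1A/B.4.2, 6 fell and 2 rose (36.1% and 35.1%). Calls were thus common among all genes, and the members leaned to the lower side. Their median log2 fold change was -0.74, -1.33, -0.20, -0.67, -0.63 and -0.71 in the same order of conditions, where the median of all genes lay between 0.0098 and 0.018. Falls of more than 2-fold were called for 4 members in shARID1A.2 (10.7% of all genes), 5 in shARID1A.4 (12%), 2 in shARID1B.2 (5.12%), 2 in shARID1B.3 (6.58%), 3 in shARID1A/B.2.3 (9.1%) and 4 in shARID1A/B.4.2 (8.14%). Rises of this size were called for 0 members in each condition, where 14.1%, 9.32%, 6.86%, 5.2%, 7.04% and 10.3% of all genes rose so. All 6 comparisons share the same 3 Control libraries, so they are not independent of each other.

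**Figure D1:**
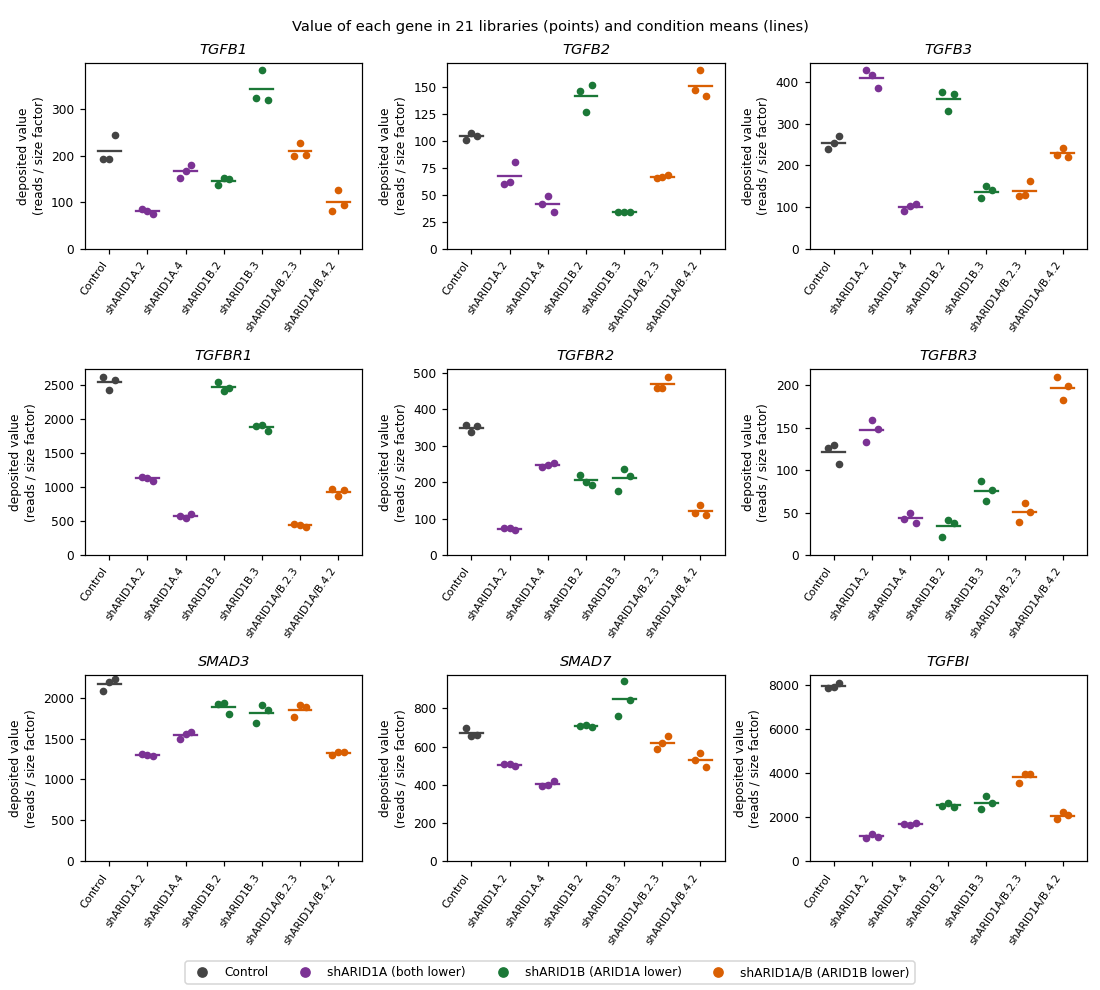
Deposited value (reads divided by the size factor of the library, linear axes from 0) of each of the 9 genes in the 21 libraries, by condition. Points are libraries, lines are condition means, and colours give the label with the transcript that was low. TGFBI and SMAD3 have their highest points in Control, and the ligands and TGFBR2 and TGFBR3 have conditions on either side of it.

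The 3 ligands did not move together, and none of them was lower in all 6 conditions. TGFB1 (ENSG00000105329.10, chr19:41301587-41353911 on the minus strand of GRCh38) was at 193, 193 and 244 in Control. It was at 85.6, 81.4 and 74.6 in shARID1A.2 and at 152, 168 and 179.6 in shARID1A.4. The libraries of shARID1B.2 had 137, 152 and 149, and those of shARID1B.3 had 324, 383 and 319. So TGFB1 was below every Control library in shARID1A.2, shARID1A.4 and shARID1B.2 and above each of them in shARID1B.3. The combination labels differed too, with 199, 227 and 201 in shARID1A/B.2.3 and 81.1, 126 and 93.7 in shARID1A/B.4.2. The fall was 2.57-fold in shARID1A.2 (log2 fold change -1.36 ± 0.13 SE, limma adjusted p = 6.8e-10) and 2.10-fold in shARID1A/B.4.2 (-1.07, limma adjusted p = 5.5e-08). TGFB1 also fell in shARID1B.2 (log2 fold change -0.51, limma adjusted p = 0.0011) and rose in shARID1B.3 (0.71, limma adjusted p = 3.5e-05). The small fall in shARID1A.4 (-0.33, limma adjusted p = 0.026) lost its call without Control replicate 3 (-0.21, limma adjusted p = 0.17) and without shARID1A.4 replicate 1 (-0.26, limma adjusted p = 0.10), and it is also lost under upper-quartile scaling (-0.24, limma adjusted p = 0.089). In shARID1A/B.2.3 the difference was 0.0032, with a 95% interval of -0.25 to 0.26. The TGFB1 locus overlaps HNRNPUL1 on the opposite strand, which had values of 9559 to 16106, and the sources used here do not give the strand setting of the counting, so reads from the pair may not be fully separated.

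TGFB2 (ENSG00000092969.12, chr1:218346235-218444619, plus strand) was the least abundant ligand in Control per kilobase of exon. Its Control libraries were at 101, 107 and 105. It stood at 59.8, 61.8 and 80.2 in shARID1A.2, at 41.8, 48.8 and 33.9 in shARID1A.4, at 33.9, 34.2 and 34.5 in shARID1B.3 and at 65.8, 66.7 and 68.1 in shARID1A/B.2.3. Higher values were found in shARID1B.2, with 146, 126 and 151, and in shARID1A/B.4.2, with 147, 165 and 141. No silenced library lay within the Control range: 12 were below it and 6 above. TGFB2 fell 2.99-fold in shARID1B.3 (log2 fold change -1.58 ± 0.14 SE, limma adjusted p = 3.0e-10) and 2.51-fold in shARID1A.4 (-1.33, limma adjusted p = 4.2e-09). The falls in shARID1A.2 (-0.64) and shARID1A/B.2.3 (-0.63) and the rises in shARID1B.2 (0.43) and shARID1A/B.4.2 (0.53) were also called, with limma adjusted p of 0.00019, 0.00024, 0.0084 and 0.0015.

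TGFB3 (ENSG00000119699.7, chr14:75958099-75982991, minus strand) was at 238, 254 and 270.1 in Control. The values were 428, 416 and 385 in shARID1A.2 and 375, 331 and 369.9 in shARID1B.2, all above Control. They were 90.3, 103 and 107 in shARID1A.4, 121, 150.1 and 139.9 in shARID1B.3, and 128, 129 and 162 in shARID1A/B.2.3, all below Control. In shARID1A/B.4.2 they were 225, 242 and 219 and overlapped Control (log2 fold change -0.15, 95% interval -0.35 to 0.05). The rises were 0.69 ± 0.099 SE in shARID1A.2 (limma adjusted p = 9.2e-07) and 0.49 in shARID1B.2 (limma adjusted p = 0.00011) on the log2 scale. The falls were -1.34 in shARID1A.4 (limma adjusted p = 7.4e-12), -0.89 in shARID1B.3 (limma adjusted p = 2.3e-08) and -0.87 in shARID1A/B.2.3 (limma adjusted p = 2.6e-08). TGFB3 overlaps IFT43 on the opposite strand, which had values of 264 to 489, with the same limit on strand as for TGFB1.

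Because the ligands moved in different directions, the ligand make-up of the cells differed between conditions. Each ligand was taken per kilobase of merged exons and as a share of the sum of the 3. In Control TGFB1 made up 47.2% ± 2.57 (SD, n = 3), TGFB2 14.9% ± 1.23 and TGFB3 37.9% ± 1.36. The share of TGFB1 was highest in shARID1B.3, with 75.3% ± 1.38, and it was 64.4% ± 1.68 in shARID1A.4 and 61.0% ± 3.42 in shARID1A/B.2.3. In shARID1A.2 TGFB3 was the main ligand, with 68.7% ± 1.47, and TGFB1 had 20.48% ± 0.73. TGFB3 also led in shARID1B.2, with 50.1% ± 1.69, and in shARID1A/B.4.2, with 43.7% ± 2.61. TGFB2 ranged from 4.76% ± 0.43 in shARID1B.3 to 27.5% ± 1.03 in shARID1A/B.4.2. The leading ligand was TGFB1 in 1 condition of each label and TGFB3 in the other. These are shares of transcripts per length, and neither latent nor active protein was measured in these libraries.

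**Figure D2:**
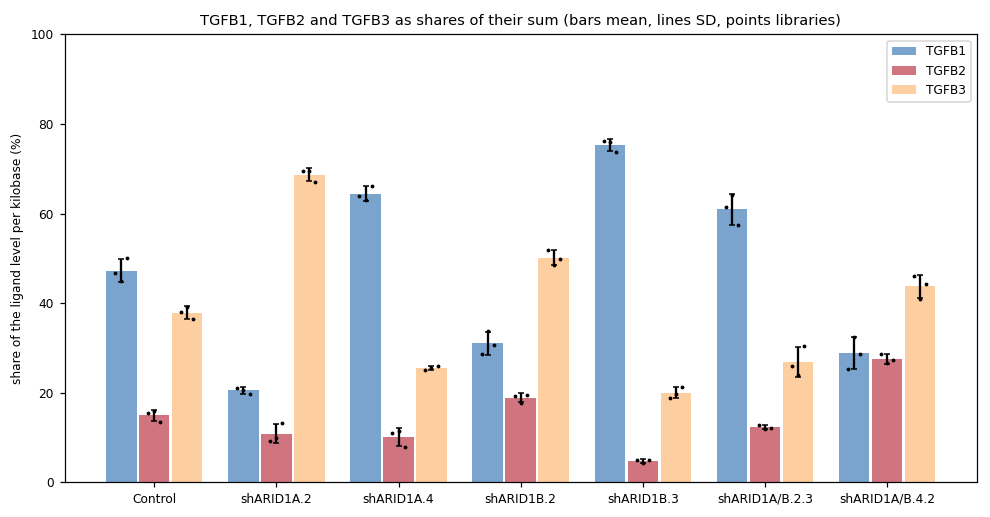
Share of TGFB1, TGFB2 and TGFB3 in their summed level per kilobase (%, from 0 to 100) in the 7 conditions. Bars are means of 3 libraries, lines are 1 SD and points are libraries. TGFB1 is the tallest bar in Control, shARID1A.4, shARID1B.3 and shARID1A/B.2.3, and TGFB3 in the other conditions.

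Among the receptors, the type I receptor TGFBR1 had the largest change of any member other than TGFBI. TGFBR1 (ENSG00000106799.13, chr9:99104038-99154192, plus strand) was at 2618, 2428 and 2574 in Control. The lowest values were 461, 445 and 413 in shARID1A/B.2.3, followed by 581, 543 and 607 in shARID1A.4, 967, 874 and 949.7 in shARID1A/B.4.2, and 1148, 1137 and 1090.2 in shARID1A.2. The libraries labelled shARID1B kept most of it, with 2543, 2415 and 2447 in shARID1B.2 and 1899, 1905 and 1828 in shARID1B.3. Only the libraries of shARID1B.2 overlapped Control. TGFBR1 fell 5.77-fold in shARID1A/B.2.3 (log2 fold change -2.53 ± 0.047 SE, limma adjusted p = 1.7e-23), 4.40-fold in shARID1A.4 (-2.14, limma adjusted p = 2.3e-22), 2.73-fold in shARID1A/B.4.2 (-1.45, limma adjusted p = 6.9e-19) and 2.26-fold in shARID1A.2 (-1.17, limma adjusted p = 3.4e-17). In shARID1B.3 the fall was 1.35-fold (-0.44, limma adjusted p = 1.5e-08). In shARID1B.2 the difference was -0.041 on the log2 scale, with a 95% interval of -0.13 to 0.051, and its sign turned when libraries were scaled to total reads (0.096). The 4 conditions with TGFBR1 down by more than 2-fold were the 4 in which ARID1B was low. Among these 4, ARID1B was lowest in shARID1A/B.4.2 and TGFBR1 in shARID1A/B.2.3. The part of ARID1B was not tested, and the share of all genes with this pattern was not counted.

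TGFBR2 (ENSG00000163513.19, chr3:30606502-30694142, plus strand) was at 358, 337 and 353 in Control and took another order. It was lowest in shARID1A.2, with 75.6, 74.2 and 67.9, and next lowest in shARID1A/B.4.2, with 115, 138 and 111. The libraries of shARID1B.2 had 219.7, 201 and 194, those of shARID1B.3 had 177, 237 and 218, and those of shARID1A.4 had 242, 247 and 252. In shARID1A/B.2.3, where TGFBR1 was lowest, TGFBR2 was above every Control library, with 459.7, 459.5 and 489. TGFBR2 fell 4.77-fold in shARID1A.2 (log2 fold change -2.25 ± 0.095 SE, limma adjusted p = 9.9e-17) and 2.87-fold in shARID1A/B.4.2 (-1.52, limma adjusted p = 3.5e-13). It fell by less than 2-fold in shARID1B.2 (-0.77), shARID1B.3 (-0.74) and shARID1A.4 (-0.50), with limma adjusted p of 1.3e-07, 2.8e-07 and 5.1e-05. The rise in shARID1A/B.2.3 was 1.34-fold (0.42, limma adjusted p = 0.00035).

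TGFBR3 (ENSG00000069702.11, chr1:91680343-91906335, minus strand) was the least abundant member per kilobase in Control and had the largest error, with an SE of 0.19 on the log2 scale. It was at 126, 129.8 and 108 in Control, at 133, 159.7 and 148 in shARID1A.2 and at 209.5, 182 and 199 in shARID1A/B.4.2. Low values were found in shARID1A.4 (42.7, 49.9 and 37.9), shARID1B.2 (21.9, 41.7 and 38.2) and shARID1A/B.2.3 (39.5, 61.5 and 50.6). The libraries of shARID1B.3 lay between, with 87.6, 63.7 and 76.9. TGFBR3 fell 3.61-fold in shARID1B.2 (log2 fold change -1.85, limma adjusted p = 6.5e-09), 2.75-fold in shARID1A.4 (-1.46, limma adjusted p = 2.5e-07) and 2.40-fold in shARID1A/B.2.3 (-1.26, limma adjusted p = 2.6e-06). It fell 1.59-fold in shARID1B.3 (-0.67, limma adjusted p = 0.0038) and rose 1.62-fold in shARID1A/B.4.2 (0.70, limma adjusted p = 0.0024). In shARID1A.2 each library was above Control, but the difference of 0.28 was not called (limma adjusted p = 0.19). It passed with scaling to total reads (0.45, limma adjusted p = 0.040) and in a fit of only these 6 libraries (0.28, limma adjusted p = 0.048).

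SMAD3 was lower in all 6 conditions, but by less than 2-fold in each. SMAD3 (ENSG00000166949.16, chr15:67063763-67195195, plus strand) is the receptor-activated SMAD that binds DNA. It was at 2084, 2194 and 2226 in Control. The lowest values were 1316, 1299.9 and 1284 in shARID1A.2 and 1294, 1337 and 1333 in shARID1A/B.4.2, which overlapped each other, followed by 1497, 1551 and 1587 in shARID1A.4. The other silenced libraries stood closer to Control, with 1920.5, 1931 and 1806 in shARID1B.2, 1695, 1911 and 1847 in shARID1B.3, and 1767, 1905 and 1892 in shARID1A/B.2.3. These last 3 conditions overlapped each other and none of them overlapped Control. The falls were 1.67-fold in shARID1A.2 (log2 fold change -0.74 ± 0.041 SE, limma adjusted p = 2.5e-14), 1.64-fold in shARID1A/B.4.2 (-0.71, limma adjusted p = 6.1e-14) and 1.40-fold in shARID1A.4 (-0.49, limma adjusted p = 8.2e-11). They were 1.19-fold in shARID1B.3 (limma adjusted p = 6.8e-06), 1.17-fold in shARID1A/B.2.3 (limma adjusted p = 2.9e-05) and 1.15-fold in shARID1B.2 (limma adjusted p = 0.00013). The fall in shARID1B.2 was not called with scaling to total reads (-0.065 on the log2 scale, limma adjusted p = 0.17), which moved the median of all genes in that comparison to 0.15.

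SMAD7 (ENSG00000101665.9, chr18:48919853-48952052, minus strand), the inhibitory SMAD, was on one side of Control in all libraries of a label. It was at 699, 658 and 661 in Control. The 6 libraries labelled shARID1A were all below that, with 510.2, 508 and 497 in shARID1A.2 and 395, 398 and 418 in shARID1A.4. The 6 labelled shARID1B were all above it, with 709.9, 712 and 701 in shARID1B.2 and 759.6, 945 and 844 in shARID1B.3. The 6 labelled shARID1A/B were also below it, shARID1A/B.2.3 replicate 3 by less than 1, with 587, 618 and 658 in shARID1A/B.2.3 and 528, 567 and 495 in shARID1A/B.4.2. SMAD7 fell in shARID1A.4 (log2 fold change -0.73 ± 0.062 SE, limma adjusted p = 1.1e-10), shARID1A.2 (-0.41, limma adjusted p = 2.0e-06) and shARID1A/B.4.2 (-0.35, limma adjusted p = 2.7e-05), and rose in shARID1B.3 (0.33, limma adjusted p = 5.7e-05). The differences in shARID1B.2 (0.073, 95% interval -0.051 to 0.20) and shARID1A/B.2.3 (-0.12, -0.24 to 0.0082) were not called. The first of them was called with scaling to total reads (0.21, limma adjusted p = 0.0047), and the second without shARID1A/B.2.3 replicate 3 (-0.16, limma adjusted p = 0.046).

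TGFBI was the most abundant member in Control and fell the most. TGFBI (ENSG00000120708.17, chr5:136028895-136063818, plus strand) was at 7866, 7911 and 8069 in Control. It was at 1075, 1256 and 1117 in shARID1A.2 and at 1672, 1633 and 1724 in shARID1A.4. The libraries labelled shARID1B had 2492, 2629 and 2458 (shARID1B.2) and 2373, 2937 and 2657 (shARID1B.3). Those labelled shARID1A/B had 3565, 3973 and 3963 (shARID1A/B.2.3) and 1895, 2234 and 2076 (shARID1A/B.4.2). The highest silenced library was thus well under the lowest Control library, and all neighbouring conditions in the order of levels were separate except shARID1B.3 and shARID1B.2. The falls were 6.93-fold in shARID1A.2 (log2 fold change -2.79 ± 0.064 SE, limma adjusted p = 4.0e-22), 4.74-fold in shARID1A.4 (-2.24, limma adjusted p = 3.5e-20) and 3.85-fold in shARID1A/B.4.2 (-1.94, limma adjusted p = 8.7e-19). They were 3.15-fold in shARID1B.2 (limma adjusted p = 4.1e-17), 3.00-fold in shARID1B.3 (limma adjusted p = 1.0e-16) and 2.08-fold in shARID1A/B.2.3 (limma adjusted p = 2.0e-13). Of the 9 members, TGFBI was the one with a fall of more than 2-fold in each condition.

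The summed value of the stromal cell markers was lower in every silenced condition than in Control, but the markers differed among themselves. All 4 stromal markers of the list (PDGFRA, PDGFRB, LUM and DCN) had reads, and their summed value was 22211 to 22420 in Control. The sum was 9670 to 10424 in shARID1A.2, 7515 to 7626 in shARID1A.4, 18177 to 18611 in shARID1B.2, 18824 to 19394 in shARID1B.3, 11638 to 11966 in shARID1A/B.2.3 and 12879 to 13321 in shARID1A/B.4.2. LUM, the largest term of the sum in Control at 10900 ± 89.4 (SD, n = 3), had a lower mean in all 6 conditions, from 2878 ± 158 in shARID1A.4 to 7716 ± 194 in shARID1A/B.4.2. DCN went the other way in 3 of them, with 1945 ± 29.4 in Control, 2711 ± 75.4 in shARID1A.2, 4704 ± 84 in shARID1B.2 and 3003 ± 293 in shARID1B.3. The mean of PDGFRB in shARID1B.3 (8286 ± 519, against 7872 ± 201 in Control) and that of PDGFRA in shARID1B.2 (1678 ± 86.6, against 1582 ± 45.4) were not below Control either. The part of these markers in the results was not tested. In bulk libraries, fewer cells of a kind and less RNA per cell cannot be told apart. All 9 adrenergic neuroblastoma markers had reads, and their levels moved too. Their summed value, most of it MYCN, was 186342 to 191549 in Control, 147159 to 152577 in shARID1A.2, 472613 to 491086 in shARID1A.4, 126959 to 133610 in shARID1B.2, 199122 to 222916 in shARID1B.3, 279211 to 286375 in shARID1A/B.2.3 and 148199 to 150626 in shARID1A/B.4.2. MYCN was at 122676 ± 2041 in Control and 418088 ± 8240 in shARID1A.4, HAND2 at 19231 ± 231 in Control and 5922 ± 149 in shARID1A.2, and DBH at 529 ± 58.2 in Control, 114 ± 7.95 in shARID1A.2 and 1131 ± 55.9 in shARID1A/B.2.3. Their part in the results was not tested either. The Schwann cell marker SOX10 was at 0 in all 21 libraries, and the sum of 3 immune markers (PTPRC, CD68 and CD3E) was 418 to 451 in Control and 61.2 to 330 in the silenced libraries. Most of this sum in Control was PTPRC (411 ± 14), which had a lower mean in all 6 silenced conditions. CD68, at 23.4 ± 4.17 in Control, was at 41.8 ± 6.49 in shARID1A/B.4.2 and had lower means in the other silenced conditions. CD3E was at 0 in Control and had its highest mean, 6.84 ± 1.53, in shARID1A/B.4.2.

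**Figure D3:**
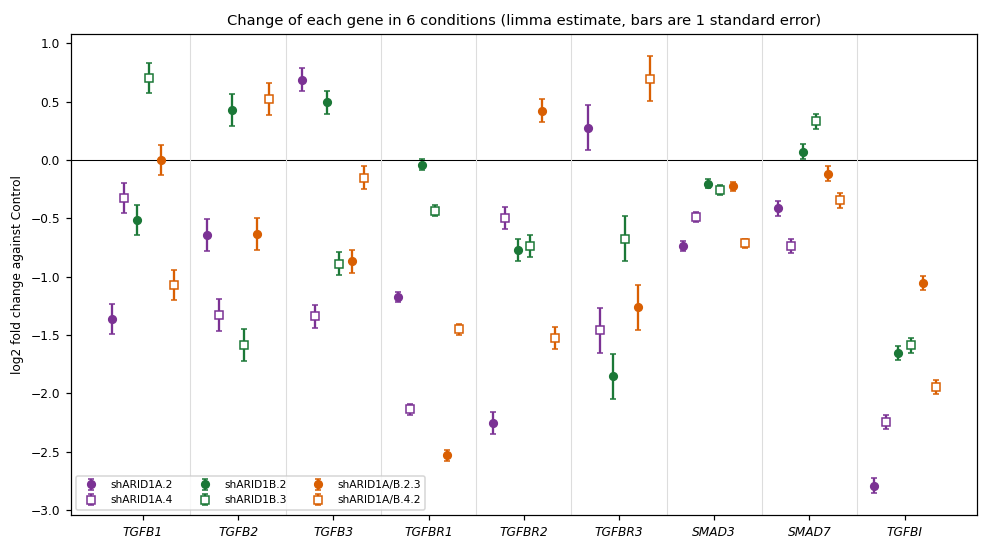
Log2 fold change of each gene in the 6 silenced conditions against Control, from limma with 21 libraries. Points are estimates, bars are 1 SE, filled and open symbols are the 2 conditions of a label, and the line at 0 is no change. SMAD3 and TGFBI lie below the line in all 6 conditions, and the ligands, TGFBR2 and TGFBR3 lie on both sides.

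Per kilobase of exon, the order of the members in Control ran from TGFBI (1018 ± 13.6 SD) through TGFBR1 (371 ± 14.6), SMAD3 (238 ± 8.18), SMAD7 (134 ± 4.49), TGFBR2 (74.3 ± 2.38), TGFB1 (64.8 ± 9.25), TGFB3 (51.7 ± 3.22) and TGFB2 (20.3 ± 0.63) to TGFBR3 (13.9 ± 1.34). The target, the type I receptor and the SMADs were thus far above the ligands and the other receptors. In Control TGFBR1 was well above TGFBR2 per kilobase, and in shARID1A/B.2.3 the order was turned, with TGFBR1 at 64.2 ± 3.59 and TGFBR2 at 99.8 ± 3.66. In shARID1A.2 TGFBR1 (164 ± 4.51) was above TGFBI (147 ± 12.1), as it was in shARID1B.2 (361 ± 9.72 against 323 ± 11.6).

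To see what the promoters of these genes share, the upstream windows of RefSeq (GRCh38.p14) were read, which cover 250 bases before each listed start, and all 9 members matched by symbol. The sequences shown are those of TGFBR1, SMAD3 and TGFBI, which rose in no condition, on the plus strand and without bases of annotated exons. They are chr9:99104863-99105088, chr15:67065352-67065601 and chr5:136028738-136028894, and capitals mark the short SMAD motif GTCTG on either strand.
TGFBR1: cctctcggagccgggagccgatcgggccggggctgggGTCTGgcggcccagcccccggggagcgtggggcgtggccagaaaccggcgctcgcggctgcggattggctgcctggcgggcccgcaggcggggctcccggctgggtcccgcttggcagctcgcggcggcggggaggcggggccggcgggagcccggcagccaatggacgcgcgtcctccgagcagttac
SMAD3: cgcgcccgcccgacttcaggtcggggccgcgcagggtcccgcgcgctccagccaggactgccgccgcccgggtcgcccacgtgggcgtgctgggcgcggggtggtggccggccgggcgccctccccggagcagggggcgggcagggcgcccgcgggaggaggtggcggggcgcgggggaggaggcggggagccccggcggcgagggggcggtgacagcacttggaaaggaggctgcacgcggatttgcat
TGFBI: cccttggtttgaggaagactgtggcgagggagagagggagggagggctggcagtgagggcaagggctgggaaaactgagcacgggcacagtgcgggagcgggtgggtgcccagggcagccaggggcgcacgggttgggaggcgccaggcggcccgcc
The windows of TGFBR1 and SMAD3 lie inside the annotated span of the gene, upstream of the start listed first. The TGFBR1 sequence runs a few bases past another listed start of the gene, whose window ends at 99105082. All 3 sequences were rich in G and C, with 79.6%, 80.8% and 71.3%, where the median of 35116 whole windows was 58%. This holds for the sequences shown only. The windows of the other listed starts had 40.8% to 82% for TGFBR1 and 44.8% to 53.6% for SMAD3. The motif GTCTG (on the other strand CAGAC) was found 1 time in the TGFBR1 sequence and 0 times in those of SMAD3 and TGFBI, and 38% of all windows held it. Over all listed starts of the members it was in the windows of TGFB2, TGFB3, TGFBR1, SMAD3 and SMAD7. The longer palindrome GTCTAGAC was in 0 windows of the members and in 0.182% of all windows. The AP-1 motif TGANTCA, read on both strands, was in 1 of 5 windows of SMAD3, in no window of another member, and in 6.57% of all windows. A match of letters is not a bound site, and its absence says only that these letters are not in this window.

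The libraries of the 3 labels were also set directly against each other, as the mean of both conditions of a label, without the Control libraries in the difference. In all 3 comparisons the p-values rest on the spread between libraries within a condition. They do not measure the spread between the conditions of a label, which differ in their shRNAs. Between the libraries labelled shARID1A and shARID1B, 8 of 9 members were called (all genes 67.3%). TGFBR1 had the largest difference, lower in shARID1A by 2.67-fold (log2 difference -1.42 ± 0.033 SE, limma adjusted p = 2.1e-21). TGFB1 (-0.94), TGFBI (-0.90), SMAD7 (-0.78), TGFBR2 (-0.62), TGFB2 (-0.41) and SMAD3 (-0.38) were also lower in shARID1A, TGFBR3 was higher (0.67), and TGFB3 was not called (-0.13, 95% interval -0.27 to 0.014). It was called without shARID1B.3 replicate 1 (-0.17, limma adjusted p = 0.038). TGFBR3 had means of 147 in shARID1A.2 and 43.5 in shARID1A.4, against 33.9 in shARID1B.2 and 76.0 in shARID1B.3. TGFB2 had means of 67.3 and 41.5, against 141 and 34.2, in the same order. The direction of these label means thus did not hold for each condition. For TGFBR1, SMAD3, SMAD7 and TGFBI, both shARID1A conditions were below both shARID1B conditions.

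Between the libraries labelled shARID1A and shARID1A/B, 8 members were called (all genes 59.2%). TGFBI (-1.02 ± 0.045 SE, limma adjusted p = 1.2e-15), TGFB2 (-0.93), TGFBR2 (-0.83), SMAD7 (-0.34), TGFB1 (-0.31) and SMAD3 (-0.14) were lower in shARID1A, and TGFBR1 was higher (0.33, limma adjusted p = 4.7e-09). TGFB3 was higher in shARID1A by 0.18 (limma adjusted p = 0.026), a call that DESeq2 did not make (0.18, DESeq2 adjusted p = 0.066) and that was lost when any 1 of 6 libraries was left out, namely shARID1A.2 replicate 1, shARID1A.4 replicate 2 or 3, shARID1A/B.2.3 replicate 1 or 2, or shARID1A/B.4.2 replicate 3 (0.15 to 0.17). TGFBR3 was not called (-0.31, limma adjusted p = 0.054), but was with edgeR (-0.33, edgeR adjusted p = 0.021), with DESeq2 (-0.32, DESeq2 adjusted p = 0.035) and without shARID1A/B.2.3 replicate 1 (-0.39), shARID1A.4 replicate 2 (-0.36) or shARID1B.2 replicate 1 or 2 (-0.31).

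Between the libraries labelled shARID1A/B and shARID1B, all 9 members were called (all genes 70.2%). TGFBR1 was lower in shARID1A/B by 3.37-fold (-1.75 ± 0.033 SE, limma adjusted p = 2.1e-23), the largest difference of a member in the direct comparisons. TGFB1 (-0.63), SMAD7 (-0.43), TGFB3 (-0.31) and SMAD3 (-0.24) were lower too. TGFBR3 (0.98), TGFB2 (0.52), TGFBR2 (0.20) and TGFBI (0.12) were higher. Some of these differences are means of unlike conditions. TGFBR2 had means of 470 in shARID1A/B.2.3 and 121.5 in shARID1A/B.4.2, against 205 in shARID1B.2 and 211 in shARID1B.3. TGFBI had means of 3834 and 2068, against 2526 and 2656, in the same order. For TGFBR1 and SMAD7, both shARID1A/B conditions were below both shARID1B conditions. The difference of TGFBI was close to the threshold (limma adjusted p = 0.020). It was not called with TMM scaling (0.094, limma adjusted p = 0.069) or without shARID1B.3 replicate 1 (0.082), shARID1A/B.4.2 replicate 2 (0.092), shARID1A/B.2.3 replicate 2 (0.11) or shARID1A/B.2.3 replicate 3 (0.11). Each library labelled shARID1B had more TGFBR1 than any other silenced library (1828 or more against 1148 or less), and each library labelled shARID1A had less TGFBI than any other silenced library (1724 or less against 1895 or more). The share of all genes with labels separated in this way was not counted, so this is not read as particular to TGFBR1 and TGFBI.

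The members also differed between the conditions of a label, which are silenced with different shRNAs. All 9 members were called between shARID1A.2 and shARID1A.4 (all genes 75.8%), 6 between shARID1B.2 and shARID1B.3 (66%) and 9 between shARID1A/B.2.3 and shARID1A/B.4.2 (74.9%). TGFB3 was 4.07-fold higher in shARID1A.2 than in shARID1A.4 (log2 difference 2.02, limma adjusted p = 1.7e-15), and TGFB2 was 4.03-fold higher in shARID1B.2 than in shARID1B.3 (2.01, limma adjusted p = 2.3e-12). TGFBR2 was 3.86-fold higher in shARID1A/B.2.3 than in shARID1A/B.4.2 (1.95, limma adjusted p = 2.0e-15), and TGFBR3 was 3.89-fold lower there (-1.96, limma adjusted p = 1.5e-09). Within shARID1A, TGFBR2 differed by -1.76, TGFBR3 by 1.74, TGFB1 by -1.04 and TGFBR1 by 0.96, and within shARID1B, TGFB3 differed by 1.38, TGFB1 by -1.22 and TGFBR3 by -1.18. The members with small differences within each label were SMAD3 (-0.25, 0.054 and 0.49) and SMAD7 (0.32, -0.26 and 0.23). Within shARID1B, TGFBR2 (-0.031), SMAD3 (0.054) and TGFBI (-0.067) were not called. The difference of SMAD7 between the combinations was not called with scaling to total reads (0.076, limma adjusted p = 0.27), that of SMAD3 within shARID1B was (0.16, limma adjusted p = 0.0012), and that of TGFBI within shARID1B was called without shARID1B.3 replicate 1 (-0.15, limma adjusted p = 0.045). The ARID1A and ARID1B levels themselves differed within a label, as ARID1B was lower in shARID1A.2 than in shARID1A.4 (-0.47, limma adjusted p = 2.0e-15), and their part in these differences was not tested.

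**Figure D4:**
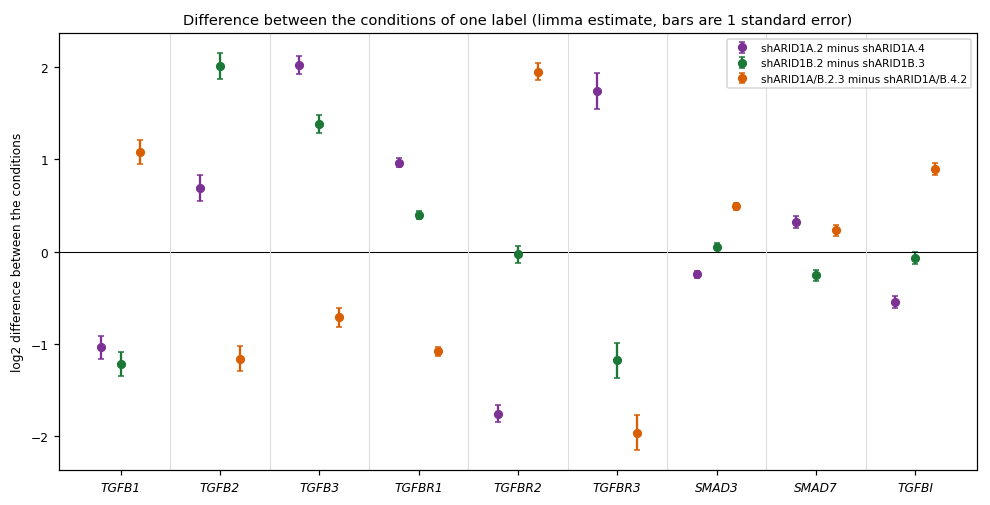
Log2 difference of each gene between the 2 conditions of a label, from limma with 21 libraries. Points are estimates, bars are 1 SE, and the line at 0 is no difference. TGFB3 within shARID1A, TGFB2 within shARID1B and TGFBR2 and TGFBR3 within shARID1A/B lie near 2 or -2, and SMAD3 and SMAD7 stay close to 0.

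The other genes of the pathway were taken from 5 lists with 59 genes, of which 55 had enough reads to test. In shARID1A.2, 39 of the 55 fell and 13 rose (38.2% and 37.9% of all genes), and in shARID1A.4, 38 fell and 14 rose (36.6% and 37%). In shARID1B.2 the counts were 27 and 16 (34% and 31.6%), and in shARID1B.3 29 and 17 (32% and 31.9%). In shARID1A/B.2.3 they were 31 and 18 (34% and 35.2%), and in shARID1A/B.4.2 37 and 13 (36.1% and 35.1%). The counts of each list that follow are to be read against these same shares of all genes. Their median log2 fold change was -0.54, -0.41, -0.16, -0.15, -0.27 and -0.40 in that order of conditions. Among the genes of latency and activation, which store and release the ligand, 7 of 10 tested fell in shARID1A.2, 8 in shARID1A.4, 5 in shARID1B.2, 7 in shARID1B.3, 4 in shARID1A/B.2.3 and 7 in shARID1A/B.4.2, while 3, 2, 4, 2, 4 and 2 rose in that order of conditions. ITGAV, the alpha subunit of integrins that release active TGF-beta, fell in all 6 conditions, from 9385 ± 274 (SD, n = 3) in Control to between 1861 ± 142 in shARID1A.4 and 4146 ± 147 in shARID1A/B.2.3. LRRC32 (GARP), which holds latent TGF-beta at the cell surface, was at 129 ± 11.04 in Control and fell to 16.4 ± 4.42 in shARID1A.2, 18.9 ± 1.37 in shARID1A.4, 32.3 ± 8.34 in shARID1B.2 and 27.9 ± 1.85 in shARID1B.3. It rose to 198 ± 28.6 in shARID1A/B.2.3 and was at 127 ± 17.9 in shARID1A/B.4.2, so the falls were called in the 4 conditions with ARID1A low. The part of ARID1A was not tested, and the share of all genes with this pattern was not counted. FURIN, a protease that cuts the ligand precursors, rose in all 6 conditions, from 688 ± 10 in Control to between 837 ± 36.00 in shARID1B.3 and 1999 ± 20.1 in shARID1A/B.2.3.

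Among the co-receptors and decoys, 2 of 3 fell in shARID1A.2, 3 in shARID1A.4, 1 in shARID1B.2, 3 in shARID1B.3, 2 in shARID1A/B.2.3 and 2 in shARID1A/B.4.2, while 1 rose in shARID1B.2, 1 rose in shARID1A/B.2.3 and none rose in the other 4 conditions. ENG (endoglin), a co-receptor, was at 652 ± 11.7 in Control and fell to 219 ± 11.5 in shARID1A.2, 226 ± 4.52 in shARID1A.4 and 369 ± 41.4 in shARID1A/B.4.2. ACVRL1 (ALK1), a type I receptor, was at 404 ± 27.3 in Control and lowest in shARID1A.4, with 125 ± 7.81 (log2 fold change -1.68). BAMBI, a receptor without a kinase domain that blocks signalling, was at 2144 ± 95.1 in Control, fell to 913 ± 48.3 in shARID1A.4 and 1134 ± 157 in shARID1B.3, and rose to 2665 ± 184 in shARID1B.2.

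Among the SMADs and their regulators, 10 of 15 fell in shARID1A.2, 10 in shARID1A.4, 8 in shARID1B.2, 5 in shARID1B.3, 9 in shARID1A/B.2.3 and 10 in shARID1A/B.4.2, while 4, 4, 6, 7, 5 and 4 rose in that order, so that more rose than fell in shARID1B.3. SMURF2, a ubiquitin ligase that acts on SMADs and receptors, rose in all 6 conditions, from 1120.0 ± 65.9 in Control to between 1595 ± 55.8 in shARID1B.2 and 2232 ± 27.8 in shARID1A.4. FKBP1A, which binds the type I receptor and keeps it inactive, fell in all 6, from 5030.3 ± 130.1 to between 2276 ± 55.6 in shARID1A/B.4.2 and 4187 ± 139.6 in shARID1B.2. PMEPA1, a target gene that dampens SMAD signalling, was at 1412 ± 41.4 in Control, fell to 482 ± 21.2 in shARID1A/B.2.3 and 574 ± 39.6 in shARID1A.4, and rose to 1683 ± 67.4 in shARID1B.3.

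Of 11 other TGF-beta target genes, 9 fell in shARID1A.2, 7 in shARID1A.4, 7 in shARID1B.2, 7 in shARID1B.3, 6 in shARID1A/B.2.3 and 8 in shARID1A/B.4.2, while 2, 4, 1, 3, 3 and 3 rose in that order. CCN2 (CTGF), a matrix-associated growth regulator, fell in all 6, like TGFBI. It was at 282 ± 27.8 in Control and between 29.4 ± 4.47 in shARID1A.4 and 159.8 ± 14.03 in shARID1B.2. COL1A1, a chain of type I collagen, was at 12929 ± 175 in Control and fell to 827 ± 80.3 in shARID1A/B.4.2 (log2 fold change -3.97) and 1364 ± 47.02 in shARID1A.2 (-3.24). TGFBR2 and SMAD3 were lowest in the same conditions. In shARID1B.2 COL1A1 was at 12778 ± 564 and was not called, while TGFBR2 (-0.77) and SMAD3 (-0.20) were called lower there. A link between these genes was not tested. ANGPTL4, a secreted protein, had low values, with 21.9 ± 7.79 in Control and 4.27 ± 2.04 to 17.8 ± 5.77 in the silenced conditions.

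In the activin and BMP branches, 11 of 16 tested genes fell in shARID1A.2, 10 in shARID1A.4, 6 in shARID1B.2, 7 in shARID1B.3, 10 in shARID1A/B.2.3 and 10 in shARID1A/B.4.2, while 4, 4, 4, 5, 5 and 4 rose in that order. INHBA, the subunit of activin A, was at 6.98 ± 2.78 in Control and rose to 42.1 ± 6.48 in shARID1A.4 (log2 fold change 2.48) and 46.6 ± 9.17 in shARID1A/B.2.3 (2.61), and its means were 0.623 to 2.44 in the other silenced conditions. BMP4, a BMP ligand, was at 27.5 ± 2.07 in Control and 6.19 ± 1.64 to 18.9 ± 2.01 in the silenced conditions. BMP7, another BMP ligand, was at 63.1 ± 7.35 in Control, rose to 106 ± 10.7 in shARID1A/B.2.3 and fell to between 28.2 ± 10.5 and 33.6 ± 7.35 in 4 conditions. These lists were chosen by function, and their counts are not a test of the list.

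**Figure D5:**
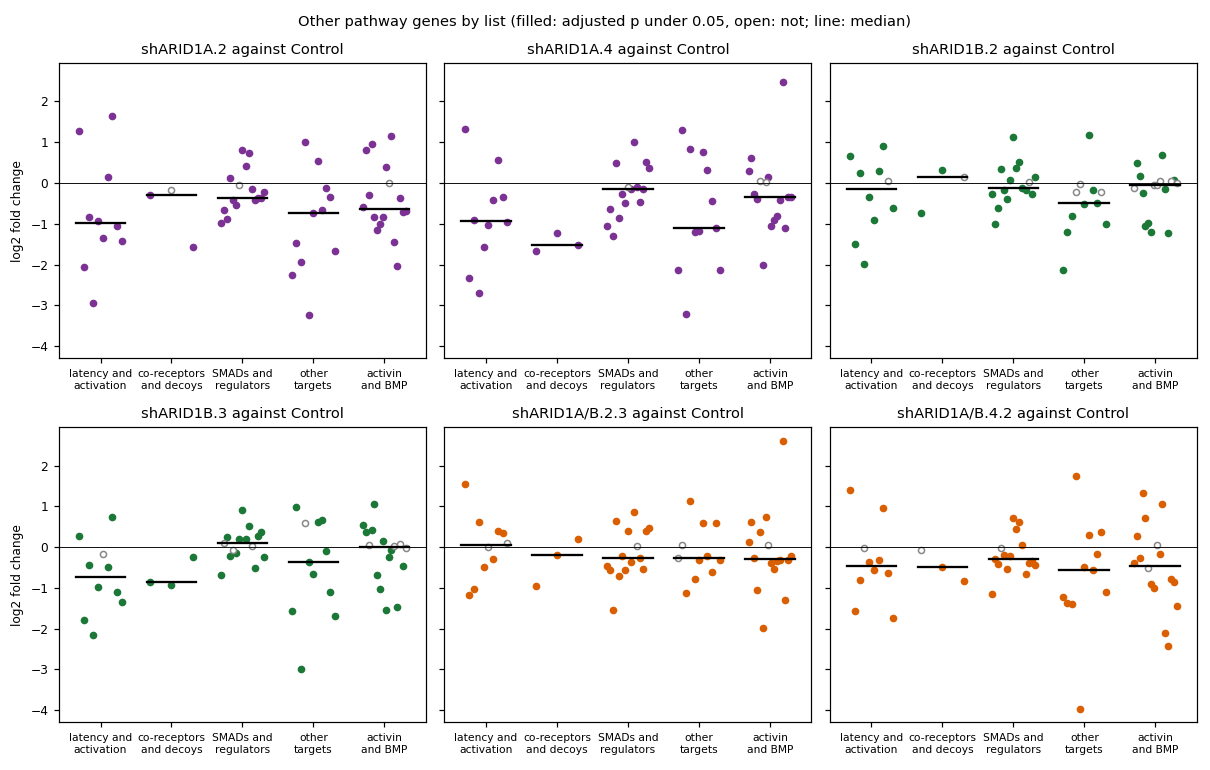
Log2 fold change of the tested genes of 5 pathway lists in each silenced condition against Control, from limma. Filled points passed an adjusted p of 0.05, open points did not, and lines are list medians. The medians lie below 0 in all 5 lists in shARID1A.2, shARID1A.4 and shARID1A/B.4.2, and on either side of 0 in the other conditions.

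For each member, the genes with the most similar pattern were found by Pearson's r of log2(value + 1) over the 21 libraries, which fall into 7 conditions and share 1 Control. TGFBR1 was closest to KIF14 and TICRR (r = 0.99 for both), and TGFBR2 to FAM89A and FMNL3 (0.98 for both). TGFBR3 was closest to KCNH8 (0.95) and KCTD10 (0.94). TGFB1 was closest to PLXNA4 (0.96) and SERTM1 (0.95), TGFB2 to FBN1 (0.95) and SUSD1 (0.92), and TGFB3 to COL3A1 (0.98) and GOLGB1 (0.97). SMAD3 was closest to MMP14 and TMEM108 (0.97 for both), SMAD7 to MGP (0.91) and ATOH8 (0.88), and TGFBI to HEG1 and ERBIN (0.98 for both). No 2 members shared a nearest gene, and r is a description over these libraries only.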

How the data were processed

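RNA-Seq values of 21 libraries of SK-N-BE(2) cells were analysed, in groups taken from the labels. For each gene the authors deposited a signal, the read count of a library scaled by its size factor (0.841 to 1.29). Per the submitters' processing notes, the tools were STAR 2.5.3a, RSEM 1.3.0 and DESeq2 1.26.0 with the GRCh38 build. Their roles and the strand setting of the counting are not given in the sources used here. Dividing by the step of the values gave whole reads (within 0.1 read) for 100% of values, with 27954334 to 41077638 reads per library. The 3 tables of the authors' own comparisons, which hold fold changes and p-values, were not used.

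edgeR's expression filter, run on whole reads, kept 18584 genes. The main test was limma 3.58.1 (R 4.3.3) with a trend on log2(value + 1), fitted to 7 conditions and 21 libraries, with Benjamini-Hochberg adjustment over all genes and calls at 0.05. Fold changes are on this log2(value + 1) scale, which understates the change of low genes. The intervals given as 95% intervals are approximate and were formed from the limma estimate and a fixed multiple of its SE. Replicate libraries differed by more than sampling noise in all 21 pairs (chi-square per degree of freedom 1.54 to 3.99), and p-values measure the spread between these libraries. Alternatives were edgeR 4.0.16 and DESeq2 1.42.0 on the recovered reads, other scalings, pseudocounts and filters, other sets of libraries, the replicate number as a block, and each library left out in turn. The tests were run on simulated counts of 18584 genes. In shARID1A/B.2.3, 100 genes were changed by 1 log2 unit and 100 by 2. limma found 76 and 96 of them, edgeR 75 and 94, and DESeq2 73 and 94, with 10, 8 and 7 false calls. Far fewer genes changed there than were called in the real comparisons. The simulation therefore does not check the scaling or the false calls of these data.

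Levels per kilobase used merged exon lengths of GENCODE 29, matched by gene identifier without version, and coordinates are from that release. The members, the pathway and marker lists and the tests were chosen with earlier results of these data known. Beside the members, the text names the 3 genes of each pathway list with the largest mean absolute log2 fold change over the 6 conditions, and the 2 genes with a mean value of at least 50 most similar to each member. Python 3.11.15 with pandas 2.3.3, numpy 2.4.6 and matplotlib 3.10.9 was used.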

Additional observations from a re-analysis of the deposited data

Results flagged for a closer look

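In 7 instances a member was called higher than Control in 1 condition of a label and lower in the other, and the difference between these conditions was itself called by limma. TGFB3 differed by 2.02 on the log2 scale between shARID1A.2 (0.69 against Control) and shARID1A.4 (-1.34). Between shARID1B.2 and shARID1B.3, TGFB1 differed by -1.22 (-0.51 and 0.71), TGFB2 by 2.01 (0.43 and -1.58) and TGFB3 by 1.38 (0.49 and -0.89). Between shARID1A/B.2.3 and shARID1A/B.4.2, TGFB2 differed by -1.16 (-0.63 and 0.53), TGFBR2 by 1.95 (0.42 and -1.52) and TGFBR3 by -1.96 (-1.26 and 0.70). All of these are ligands or receptors, and the SMADs and TGFBI had no such difference. Of all genes, 75.8% were called between the conditions of shARID1A, 66% between those of shARID1B and 74.9% between those of shARID1A/B. The share of all genes with opposite calls against Control was not counted, so the 7 instances are not read as particular to the members.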

How the results depend on the processing

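The counts of members called moved by at most 1 gene under each alternative. Of 1188 values for a member and comparison under 11 alternatives, 1166 kept their direction and side of the threshold, 5 lost their call, 10 gained one and 7 changed sign. With each library left out in turn, 2243 of 2268 kept both, 12 lost their call, 7 gained one and 6 changed sign. No called value changed sign. The changes of sign, in log2 units, were as follows. With scaling to total reads, which moves the median of all genes to 0.19 in shARID1A.2, 0.15 in shARID1B.2 and 0.20 in shARID1A/B.4.2, TGFBR1 in shARID1B.2 was 0.096, TGFB3 in shARID1A/B.4.2 was 0.035, and between shARID1B.2 and shARID1B.3 TGFBR2 was 0.076 and TGFBI 0.041. TGFB1 in shARID1A/B.2.3 was -0.0057 with DESeq2, -0.015 with TMM, and -0.057 to 0.12 with 1 library left out (below 0 without Control replicate 1 or 2 or shARID1A/B.2.3 replicate 2). Between shARID1B.2 and shARID1B.3, SMAD3 was -0.0082 with upper-quartile scaling, TGFBR2 was -0.15 to 0.057 with 1 library left out (above 0 without shARID1B.2 replicate 3 or shARID1B.3 replicate 2), and TGFBI was -0.15 to 0.0081 (above 0 without shARID1B.3 replicate 2). The cause was not tested. With the replicate number as a block, the counts of members called against Control were 8, 9, 7, 9, 7 and 8, between labels 8, 8 and 9, and within labels 9, 6 and 9, and it changed no call in 108 values. The numbers share only a name: none of 63 correlations between libraries of the same number was over 0.1 (-0.088 to 0.053), as for 126 of different numbers (-0.080 to 0.090). Depth limits TGFB2 and TGFBR3 most, which had 25 to 236 reads per library.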
